A study of Mus musculus with 24 samples.

Results

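The glycolytic enzymes of fast muscle are described here by 8 genes, Gpi1, Pfkm, Aldoa, Tpi1, Gapdh, Pgk1, Pgam2 and Eno3, which were taken by gene name from a 2-colour microarray survey of mouse gastrocnemius muscle. They were represented by 11 of the 41174 different probes on the array, and 10 of these 11 were among the 15958 probes bright enough to be analysed. All mice were C57BL/6N males fed for 8 weeks on a lipid-rich diet, in which lipids made up 35% of the weight. The cHF group ate this diet alone, cHF+F ate it with 15% of the lipids exchanged for a concentrate rich in the long-chain n-3 fatty acids DHA and EPA, and cHF+ROSI ate it with 10 mg of the insulin sensitizer rosiglitazone per kg diet. Each group held 8 mice, and muscles were taken after a fast of 10 h and overnight refeeding with chow, so the groups shared genotype, sex, diet base and refeeding. There was no low-fat group among the samples analysed.

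Glycolysis splits glucose 6-phosphate into pyruvate in the cytosol and regenerates ATP without oxygen. Fast-twitch fibres, which make up most of the mouse gastrocnemius, depend on it for short contractions and hold very large amounts of its enzymes. Several steps use a form that is enriched in muscle: Pfkm is the muscle phosphofructokinase, Aldoa the aldolase of muscle, Pgam2 the muscle phosphoglycerate mutase and Eno3 the muscle enolase. Gpi1, Tpi1, Gapdh and Pgk1 are used by nearly all tissues.

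Each value is the log2 ratio of the Cy5 signal of 1 mouse to the Cy3 signal of a common reference pool, after loess with a span of 0.3 within each array. A ratio of 0 means the same signal as the pool, and ratios of different genes cannot be compared as levels. Every slide carried 1 array of each group, always at the same place, so that place on the slide and diet cannot be told apart. The number of arrays limits the precision. Between 30.4% and 61.3% of the probes were well above background in Cy5 on 23 arrays, and 91.1% on the array of cHF+ROSI replicate 4. In a check of the tissue label, all 12 fast-fibre markers were measured at 1784 to 5202 times background, against 31.0 to 1968 times for the 9 slow-fibre markers and at most 23.3 times for the liver markers.

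The enzymes were among the brightest transcripts of the muscle. Mean Cy5 signals were 8447 times background for Aldoa, the brightest of all 15958 probes, 3562 for Eno3, 3085 for Gapdh, 3020 for Pfkm, 2564 for Gpi1, 2505 for Tpi1, 2333 for Pgam2 and 1103 for Pgk1. Aldoa had 2 probes, and its brighter one was saturated on 2 cHF, 4 cHF+F and 4 cHF+ROSI arrays and its second one on 2, 3 and 3, so neither measured Aldoa fully. The remaining probe, a second one for Gpi1, gave 1.79 times background and was not analysed. On the mm8 build the brightest probes lay at chr7:33910936-33910995 (minus strand) for Gpi1, chr15:97960316-97960375 (plus) for Pfkm, chr7:126586235-126586249 (minus, listed as 15 bases) for Aldoa, chr6:124776548-124776607 (minus) for Tpi1, chr6:125128116-125128174 (minus) for Gapdh, chrX:102406147-102406206 (plus) for Pgk1, chr11:5701822-5703040 (minus, listed as 1219 bases) for Pgam2 and chr11:70478622-70478681 (plus) for Eno3. Which exons they lie in was not determined here.

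The promoters of Aldoa, Pgam2 and Eno3, 3 of the muscle-enriched forms named above, are shown so that their muscle factor motifs can be compared, and that of Pfkm, which has 4 listed starts, is not printed. They are the 250 bases before the first listed RefSeq start on GRCm38.p6, read 5′ to 3′ on the gene's strand, at chr7:126800448-126800697 (minus) for Aldoa, which has 3 listed starts, chr11:5803797-5804046 (minus) for Pgam2 and chr11:70656926-70657175 (plus) for Eno3. Capitals mark E-boxes (CANNTG), the sequence bound by MyoD and many other helix-loop-helix factors, and the MEF2 consensus, named for a muscle transcription factor.
Aldoa: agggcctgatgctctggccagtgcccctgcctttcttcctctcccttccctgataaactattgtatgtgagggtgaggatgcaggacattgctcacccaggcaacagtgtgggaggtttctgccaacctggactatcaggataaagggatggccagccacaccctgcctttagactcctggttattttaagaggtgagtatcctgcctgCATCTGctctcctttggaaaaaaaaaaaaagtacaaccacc
Pgam2: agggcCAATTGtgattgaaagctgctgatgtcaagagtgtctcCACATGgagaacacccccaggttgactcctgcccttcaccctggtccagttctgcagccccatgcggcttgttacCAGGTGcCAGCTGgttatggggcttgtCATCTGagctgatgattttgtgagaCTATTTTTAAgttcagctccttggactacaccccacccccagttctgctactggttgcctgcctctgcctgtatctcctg
Eno3: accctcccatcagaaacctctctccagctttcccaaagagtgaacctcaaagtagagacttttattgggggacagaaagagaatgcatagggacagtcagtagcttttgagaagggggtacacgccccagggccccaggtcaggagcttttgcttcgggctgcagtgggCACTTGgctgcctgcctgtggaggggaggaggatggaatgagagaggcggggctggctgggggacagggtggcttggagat
Pgam2 held 5 E-boxes and the only MEF2 match among the 13 listed starts of the 8 genes, while Aldoa and Eno3 held 1 E-box each. On both strands, 66.2% of 32841 mouse promoter windows of this length held an E-box and 2.92% a MEF2 match. A match is a stretch of letters, and binding was not measured.

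1 array stood apart for these genes. On the array of cHF+ROSI replicate 3 the median ratio of the 8 enzymes was -0.92, where the other 23 arrays ran from -0.42 (cHF replicate 3) to 0.37. The bright end of that array was low as a whole, and 284 other probes, the brightest 2% without the listed genes, had a median of -0.69 there and between -0.25 and 0.08 on the other 23. The fast-fibre markers were low there too, with a median of -0.85. With a loess span of 0.1, which follows the bright end of each array more closely, the same array gave -0.01 for the bright probes, 0.04 for the enzymes and 0.04 for the fast-fibre markers. All results are therefore given with span 0.3, and with that array left out or with span 0.1 where these move them.

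**Figure D1:**
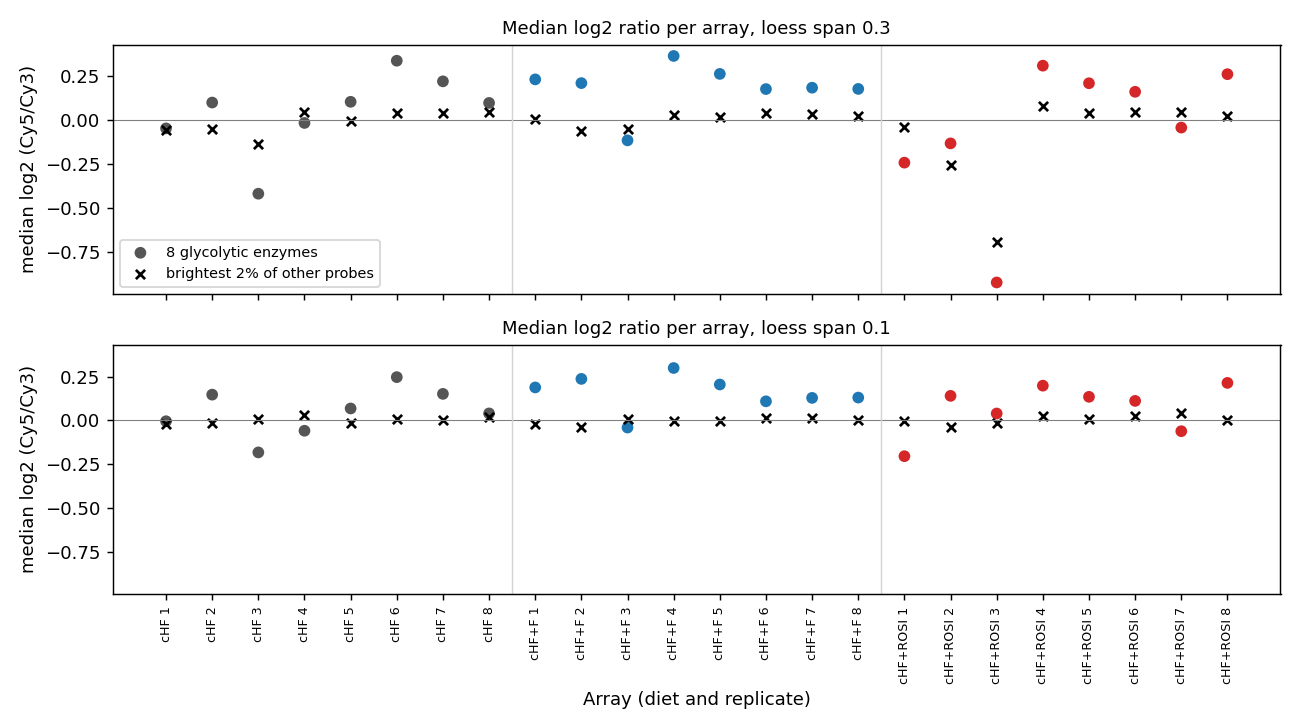
Median log2 ratio of the 8 enzymes (filled points) and of the brightest 2% of other probes (crosses) on each of the 24 arrays, with a loess span of 0.3 above and of 0.1 below. With span 0.3, cHF+ROSI replicate 3 lies at -0.92 for the enzymes and -0.69 for the bright probes, and with span 0.1 at 0.04 and -0.01.

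The array of cHF replicate 3 was the dimmest for all 8 genes in both channels. Its Pfkm signal was 2236 units in Cy5, against a median of 198352 over the 24 arrays and a next lowest of 48328. The Pgk1 signal was 2565 units there against a median of 79192. The Cy3 signals were the lowest there too, and its Pfkm and Pgk1 ratios lay within the range of the other cHF mice. The other 6 enzymes had their lowest cHF ratio on this array, with Tpi1 at -0.65 (next -0.17), Eno3 at -0.61 (next -0.09), Gapdh at -0.52 (next -0.14), Aldoa at -0.43 (next 0.15), Pgam2 at -0.41 (next -0.23) and Gpi1 at -0.21 (next -0.07). Leaving this array out lowered the difference between cHF+F and cHF from 0.14 to 0.06 for Tpi1, from 0.14 to 0.05 for Eno3, from 0.13 to 0.04 for Gapdh, from 0.11 to 0.07 for Gpi1 and from 0.11 to -0.02 for Aldoa. For Pgam2 this difference ran from 0.18 to 0.27 over all fits that left out 1 array.

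No glycolytic enzyme passed the test in any comparison of diets. Limma with Benjamini-Hochberg adjustment over all 15958 probes called 0 of 8 members in cHF+F versus cHF (smallest adjusted p = 0.736), in cHF+ROSI versus cHF (0.996) and in cHF+F versus cHF+ROSI (0.589). This matched the background, since 0% of all probes were called in each of the 3 comparisons. At an unadjusted p under 0.05 the members numbered 0 of 8, 0 of 8 and 1 of 8, beside 6.86%, 4.7% and 6.67% of all probes. With a loess span of 0.1 they numbered 2, 1 and 1 of 8, beside 7.53%, 4.45% and 6.27%. The t-test named in the study's methods also called 0 members after Benjamini-Hochberg adjustment in every comparison.

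**Figure D2:**
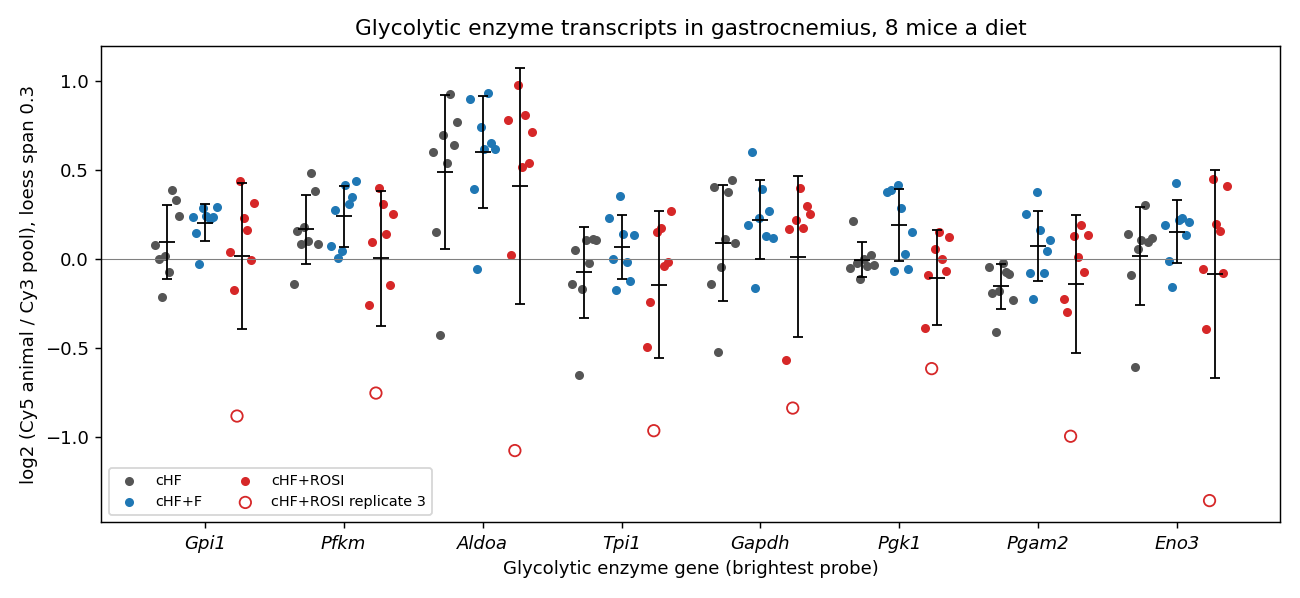
Log2 ratio of Cy5 to the Cy3 pool (loess span 0.3, vertical axis) for the brightest probe of the 8 enzymes (horizontal axis) in 8 cHF, 8 cHF+F and 8 cHF+ROSI mice; points are mice, bars are mean ± SD, and open circles mark cHF+ROSI replicate 3. The groups overlap for every enzyme, and the open circle is the lowest point for all 8.

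The first enzymes of the pathway covered showed no difference between the diets that passed the test. Gpi1, which converts glucose 6-phosphate to fructose 6-phosphate, had ratios from -0.21 to 0.39 (median 0.05) in cHF, from -0.03 to 0.30 (median 0.24) in cHF+F and from -0.88 to 0.44 (median 0.10) in cHF+ROSI. The cHF+F mice were tightly grouped, and 7 of 8 lay above the cHF mean, but the groups overlapped. The difference between cHF+F and cHF was 0.11 (95% interval -0.15 to 0.37, adjusted p = 0.955). Pfkm, the main control point of the pathway, ranged from -0.14 to 0.48 (median 0.13) in cHF, from 0.01 to 0.44 (median 0.29) in cHF+F and from -0.75 to 0.40 (median 0.12) in cHF+ROSI. Its difference between cHF+F and cHF, 0.07 (-0.18 to 0.32, adjusted p = 0.975), was the smallest of the 8. Its value in cHF+ROSI was 0.16 lower than in cHF (95% interval of the difference -0.41 to 0.09, adjusted p = 0.996), and this difference came to -0.05 (-0.26 to 0.15) without cHF+ROSI replicate 3. Between cHF+F and cHF+ROSI, Gpi1 differed by 0.19 (-0.07 to 0.45, adjusted p = 0.815) and Pfkm by 0.23 (-0.02 to 0.49, adjusted p = 0.768). Without cHF+ROSI replicate 3 these were 0.06 and 0.13. A fit with the slide as a block, which uses only differences within a slide, gave Pfkm an interval of 0.03 to 0.44. Its adjusted p there was 0.326, and that of Gpi1 was 0.382.

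Aldoa and Tpi1, which split fructose 1,6-bisphosphate and interconvert the 2 products, had wider spreads. Aldoa ranged from -0.43 to 0.93 (median 0.62) in cHF, from -0.06 to 0.94 (median 0.64) in cHF+F and from -1.08 to 0.98 (median 0.63) in cHF+ROSI. The medians were nearly equal and replicate 3 was the lowest mouse of each group, on the slide that held all 3 of these arrays. The difference between cHF+F and cHF was 0.11 (95% interval -0.35 to 0.57), the widest interval of the 8 genes in the fit without the slide. With the slide as a block the interval was -0.08 to 0.31, and that of Eno3, -0.09 to 0.36, was the widest. The second Aldoa probe, saturated on nearly as many arrays, gave 0.03 (-0.39 to 0.45) without the block. The 2 Aldoa probes tracked each other with a Pearson r of 0.81 over 24 arrays at span 0.3 and of 0.28 at span 0.1. Tpi1 ranged from -0.65 to 0.11 (median 0.02) in cHF, from -0.18 to 0.35 (median 0.07) in cHF+F and from -0.96 to 0.27 (median -0.03) in cHF+ROSI. Its 3 groups overlapped in part, and cHF+F differed from cHF by 0.14 (-0.14 to 0.43, adjusted p = 0.938).

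Gapdh, which carries out the oxidative step that yields NADH and is often used as a reference gene, showed no difference that passed the test. It ranged from -0.52 to 0.44 (median 0.10) in cHF, from -0.16 to 0.60 (median 0.21) in cHF+F and from -0.84 to 0.40 (median 0.20) in cHF+ROSI. The difference was 0.13 (95% interval -0.20 to 0.46, adjusted p = 0.959) between cHF+F and cHF and -0.08 (-0.40 to 0.25, adjusted p = 0.996) between cHF+ROSI and cHF. With span 0.1 the intervals shrank to -0.15 to 0.34 and -0.18 to 0.31. Between cHF+F and cHF+ROSI the difference was 0.21 (-0.12 to 0.53, adjusted p = 0.851), and 0.03 (-0.21 to 0.27) with span 0.1. With the slide as a block its interval at span 0.3 was 0.01 to 0.40 (adjusted p = 0.356).

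Pgk1, the enzyme of the first ATP-yielding step, had the smallest p of the members in cHF+F versus cHF and in cHF+F versus cHF+ROSI with span 0.3 and all arrays, whereas Pgam2 had the smaller p in the former with span 0.1, without cHF+ROSI replicate 3 and with the slide as a block. Its ratios ran from -0.11 to 0.22 (median -0.03) in cHF, from -0.07 to 0.42 (median 0.22) in cHF+F and from -0.62 to 0.15 (median -0.03) in cHF+ROSI. Of the cHF+F mice 6 of 8 lay above the cHF mean, but the highest cHF ratio and the cHF+F median were both 0.22, and all groups overlapped. cHF+F exceeded cHF by 0.19 ± 0.10 (SE, 95% interval -0.00 to 0.39, adjusted p = 0.736) and cHF+ROSI by 0.29 ± 0.10 (0.10 to 0.49, adjusted p = 0.589). With span 0.1 the first was 0.18 (0.02 to 0.34, adjusted p = 0.586). The second was the only member difference with an unadjusted p under 0.05 at span 0.3. It was 0.22 (0.05 to 0.39, adjusted p = 0.654) without cHF+ROSI replicate 3 and 0.19 (0.03 to 0.35, adjusted p = 0.757) with span 0.1. A second Pgk1 probe, flagged on 1 cHF array and therefore fitted without it, gave 0.25 (0.01 to 0.48, adjusted p = 0.740) for cHF+F versus cHF+ROSI and 0.14 (-0.11 to 0.38, adjusted p = 0.925) for cHF+F versus cHF.

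Pgam2, which moves the phosphate of 3-phosphoglycerate, ranged from -0.41 to -0.02 (median -0.13) in cHF, from -0.23 to 0.38 (median 0.08) in cHF+F and from -0.996 to 0.19 (median -0.03) in cHF+ROSI. All 8 cHF mice had ratios below 0, and 7 of 8 cHF+F mice lay above the cHF mean. The difference was 0.23 ± 0.12 (SE, 95% interval -0.02 to 0.47, adjusted p = 0.788) between cHF+F and cHF, the largest of the 8 in that comparison. With span 0.1 it was 0.20 ± 0.06 (0.07 to 0.33, adjusted p = 0.399), and the cHF+F mouse exceeded the cHF mouse on 8 of 8 slides by 0.02 to 0.53. On the same scale Pgam2 was 0.13 higher in cHF+ROSI than in cHF (0.00 to 0.26, adjusted p = 0.999), where span 0.3 gave 0.01. Without cHF+ROSI replicate 3, whose removal lowers the spread shared by the 3 groups, the adjusted p of the difference between cHF+F and cHF was 0.556 for Pgam2 and 0.639 for Pgk1 at span 0.3. None of these values passed the test across all probes.

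Eno3, the enolase of mature muscle, ranged from -0.61 to 0.30 (median 0.10) in cHF, from -0.16 to 0.43 (median 0.20) in cHF+F and from -1.36 to 0.45 (median 0.05) in cHF+ROSI. The lowest of these values, on the array of cHF+ROSI replicate 3, was also the lowest of all 8 genes. cHF+F differed from cHF by 0.14 (95% interval -0.22 to 0.50, adjusted p = 0.960), and by 0.10 (-0.06 to 0.26) with span 0.1.

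**Figure D3:**
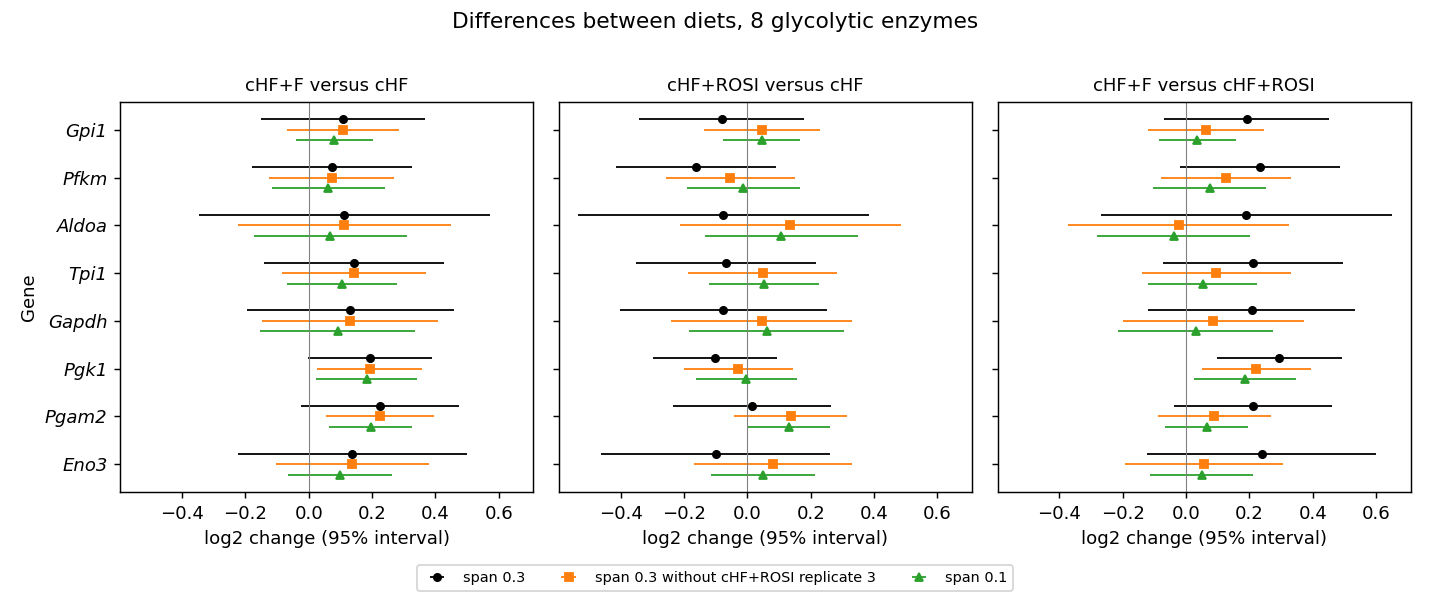
Log2 differences between diets (horizontal axis, point with 95% interval from limma) for the 8 enzymes with span 0.3, with span 0.3 without cHF+ROSI replicate 3, and with span 0.1. In cHF+ROSI versus cHF the median over the 8 moves from -0.08 to 0.05 and 0.05.

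All 8 estimates of cHF+F versus cHF were above 0 with span 0.3, from 0.07 to 0.23 with a median of 0.13, but with median centring in place of loess 5 of 8 were, with a median of 0.01. Of all probes, 50.4% were above 0 (50.8% with span 0.1), and their median was 0.00. With span 0.1 the enzymes had a median of 0.09, again with 8 of 8 above 0, and without cHF replicate 3 at span 0.3 a median of 0.06. The 8 are bright, correlated probes on the same arrays, so that their signs are not independent. Slow-fibre markers were lower in the same comparison, with 8 of 9 below 0 and a median of -0.34. At an unadjusted p under 0.05 were 4 of 9, beside 6.86% of all probes, with 0 of 9 called. The 12 fast-fibre markers had a median of 0.10, with 9 above 0. Per-array medians of the slow-fibre list ran from -0.21 to 0.87 in cHF and from -0.56 to 0.31 in cHF+F, and those of the fast-fibre list from -0.41 to 0.47 and from -0.16 to 0.45. All 5 macrophage markers were below 0 as well (median -0.18), and so were all 4 endothelium markers (median -0.11). At an unadjusted p under 0.05 were 2 of 5 and 1 of 4 of these markers, beside the same 6.86%, with 0 called. Their per-array medians ran from -0.29 to 0.33 in cHF and -0.68 to 0.10 in cHF+F for macrophages, and from -0.27 to 0.32 and -0.17 to 0.18 for endothelium. The 4 liver markers measured were above 0 (median 0.26), with per-array medians from -1.58 to -0.11 in cHF and -1.27 to 0.34 in cHF+F. Of 7 adipocyte markers 5 were below 0 (median -0.09), and so were 2 of 2 erythrocyte markers (median -0.02). At an unadjusted p under 0.05 were 0 of 4, 0 of 7 and 0 of 2, beside the same 6.86%. The part of fibre or cell makeup in the enzyme values was not tested, and in bulk muscle fewer fibres of a type cannot be told apart from less RNA per fibre.

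In cHF+ROSI versus cHF, 7 of 8 estimates were below 0 with span 0.3 (median -0.08, all probes -0.01, of which 45.3% were above 0, and 46.8% with span 0.1). This sign changed with 1 array. Without cHF+ROSI replicate 3 the median was 0.05 with 2 of 8 below 0, and with span 0.1 it was 0.05 with 2 of 8 below 0. Without all 3 arrays of slide 3 it was -0.02. The bright probes outside the lists had a median difference of -0.10 with all arrays and of -0.01 without that array. Fast-fibre markers moved alike, with 11 of 12 below 0 (median -0.12), against 5 of 12 without that array (median 0.01), and their per-array medians ran from -0.85 to 0.44 in cHF+ROSI. Slow-fibre markers had a median of -0.22 with 6 of 9 below 0. Without that array their median was -0.37 with 8 of 9 below 0. All 5 macrophage markers (median -0.07) and all 4 endothelium markers (median -0.16) were below 0. At an unadjusted p under 0.05 were 0 of 9, 0 of 5 and 2 of 4, beside 4.7% of all probes, with 0 called. Per-array medians of the slow-fibre list ran from -1.20 to 0.51 in cHF+ROSI. The 4 liver markers were above 0 (median 0.46), with per-array medians from -1.71 to 1.14 in cHF+ROSI. Of 7 adipocyte markers 4 were above 0 (median 0.01), and 2 of 2 erythrocyte markers were below 0 (median -0.40). At an unadjusted p under 0.05 were 0 of 4, 0 of 7 and 1 of 2, beside the same 4.7%, with 0 called.

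All 8 estimates of cHF+F versus cHF+ROSI were above 0 with span 0.3, from 0.19 to 0.29 with a median of 0.21, but with median centring 6 of 8 and in Cy5 alone 5 of 8 were. Of all probes, 54.2% were above 0, and 52.8% with span 0.1. The bright probes outside the lists had a median of 0.09 in this comparison, and 12 of 12 fast-fibre markers were above 0 (median 0.18), against 7 of 12 without cHF+ROSI replicate 3 (median 0.03). Without cHF+ROSI replicate 3 the median of the enzymes was 0.09 and with span 0.1 it was 0.05, with 7 of 8 above 0 in both and Aldoa below 0. With the slide as a block, which uses only differences within a slide, 6 of 8 members had an unadjusted p under 0.05 in this comparison, beside 13.1% of all probes, and none was called (smallest adjusted p = 0.176). With span 0.1 and the block together, 1 of 8 did, beside 12.2% of all probes. For cHF+F versus cHF the block gave an unadjusted p under 0.05 for 2 of 8, Pgk1 (adjusted p = 0.363) and Pgam2 (0.299), beside 12.1% of all probes, with 0 of 8 called, beside 0.0376%. With span 0.1 as well, 2 of 8 had an unadjusted p under 0.05, beside 12.9%, and 0 of 8 were called, beside 0.0439%. For cHF+ROSI versus cHF the block gave 0 of 8, beside 9.55%, and with span 0.1 also 0 of 8, beside 9.14%.

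**Figure D4:**
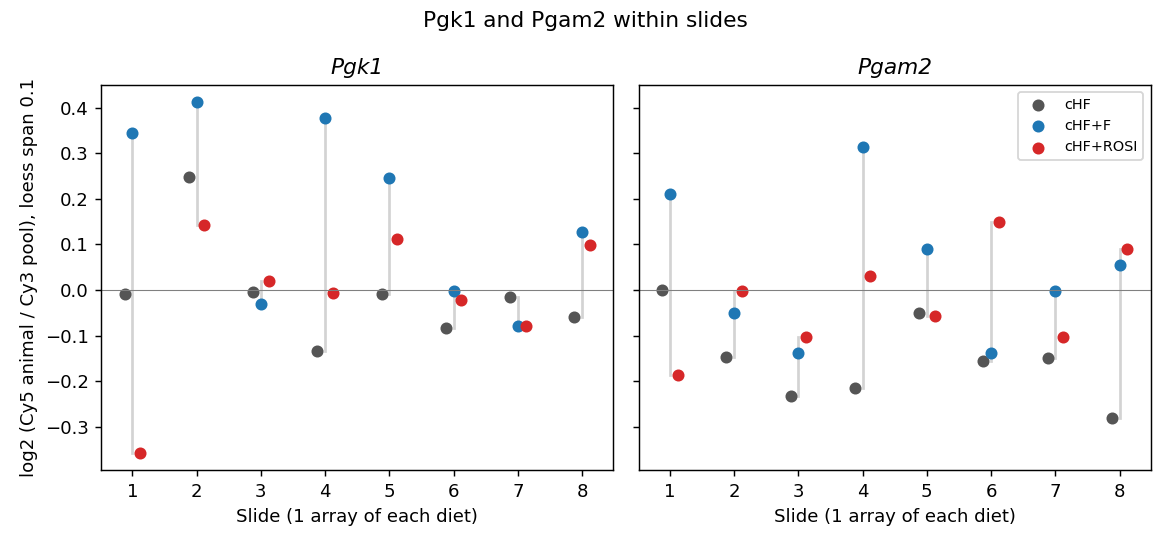
Log2 ratio (loess span 0.1, vertical axis) of Pgk1 and Pgam2 on the 8 slides (horizontal axis), each with 1 cHF, 1 cHF+F and 1 cHF+ROSI mouse; grey lines join the arrays of a slide. For Pgam2 the cHF+F mouse lies above the cHF mouse on 8 of 8 slides, and for Pgk1 on 6 of 8.

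Replicate spots showed the spread between single spots within an array. An array value is the mean of the unflagged spots of its probe, so the SD of single spots is not the error of that value. Gpi1 and Pgk1 were each printed 10 times per array, and the SD between their spots had a median of 0.07 for Gpi1 and 0.08 for Pgk1 over the 24 arrays. The SD between arrays, which holds differences between mice and between arrays together, was 0.21 in cHF, 0.11 in cHF+F and 0.41 in cHF+ROSI for Gpi1, and 0.10, 0.20 and 0.27 for Pgk1. Without cHF+ROSI replicate 3 the SD of the cHF+ROSI group was 0.21 for Gpi1 and 0.18 for Pgk1, and with span 0.1 and all arrays it was 0.12 and 0.16.

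The enzymes varied together across arrays. With span 0.3 the Pearson r over 24 arrays of the 28 pairs of members ran from 0.46 (Aldoa with Pgk1) to 0.95 (Gpi1 with Eno3), with a median of 0.76. Without cHF+ROSI replicate 3 they ran from 0.07 to 0.87, with a median of 0.61. With span 0.1 the median was 0.35 and the range -0.16 to 0.73, the highest for Tpi1 with Pgk1. These arrays share reference, slides and the shape of the bright end, so the values describe the arrays and the muscles together. The 5 genes whose brightest probe most resembled the mean of the 8 members, among 10218 genes with a value on 24 arrays, were Gm5069 (r = 0.96), Myl1 (0.95), Acta1 (0.90), Pgm1 (0.89) and Myom2 (0.89) with span 0.3. With span 0.1 they were Gm5069 (0.81), Myl1 (0.79), Cited4 (0.77), Fto (0.74) and Ccdc6 (0.69). Myl1, an alkali light chain of fast-fibre myosin, and Gm5069, a predicted gene, were in both sets.

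In the rest of the pathway no gene passed the test between the diets either. Of 23 other glycolysis genes, which include the hexokinases, the regulatory 6-phosphofructo-2-kinases, isoforms made in other tissues and lactate dehydrogenase, 17 were bright enough and 0 were called in any comparison by limma. At an unadjusted p under 0.05 there was 0 of 17 in cHF+F versus cHF, 1 of 17, lower, in cHF+ROSI versus cHF and 1 of 17, lower, in cHF+F versus cHF+ROSI. Of all probes, 6.86%, 4.7% and 6.67% did so in these comparisons. The medians of the 17 genes were -0.03, -0.01 and -0.02. Pkm, pyruvate kinase of muscle, was the gene in cHF+ROSI versus cHF, at -0.21 ± 0.08 (SE, adjusted p = 0.996), and at -0.15 (adjusted p = 0.999) with span 0.1. Without cHF+ROSI replicate 3 it was -0.16 (95% interval -0.33 to 0.00), no longer at an unadjusted p under 0.05, and 0 of 17 genes were, beside 762 of all 15958 probes. A second bright Pkm probe gave -0.15 (adjusted p = 0.996) with span 0.3. Hk1, a hexokinase of many tissues, was the gene in cHF+F versus cHF+ROSI, at -0.15 ± 0.06 (SE, adjusted p = 0.715). With the slide as a block the counts were 1 of 17 (lower), 3 of 17 (1 higher, 2 lower) and 2 of 17 (1 higher, 1 lower), with 0 called. Of all probes, 12.1%, 9.55% and 13.1% had an unadjusted p under 0.05 with the block.

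Hk2, the insulin-responsive hexokinase of muscle, differed between cHF+F and cHF by 0.18 ± 0.13 (SE, adjusted p = 0.893), Ldha, lactate dehydrogenase of fast muscle, by 0.02 ± 0.14 (adjusted p = 0.995) and Pgam1, the phosphoglycerate mutase of other tissues, by -0.03 ± 0.09 (adjusted p = 0.988). Ldha had no value on the array of cHF replicate 3, which the fit left out, and with the slide as a block its difference was 0.10 ± 0.08. Pgam1 was measured at 49.4 times background, and 6 of the 23 genes, Hk3, Aldoc, Pgk2, Gapdhs, Eno2 and Pklr, were too dim to be analysed.

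The reference channel was compared as a control, since the same pool was on every array. In Cy3 alone the members differed between array sets by -0.19 to 0.43 over the 3 comparisons, with 0 of 8 at an unadjusted p under 0.05 in each, beside 0.495% of all probes in cHF+F versus cHF, 1.87% in cHF+ROSI versus cHF and 0.119% between the treated groups. Pfkm differed by 0.41 in Cy3 and 0.49 in Cy5 for cHF+F versus cHF. Pgk1 differed by 0.16 in Cy3 and 0.36 in Cy5 in that comparison, and by -0.19 and -0.03 in cHF+F versus cHF+ROSI. The array of cHF replicate 3 was the dimmest for both genes in both channels. In Cy5 alone the SD of Pfkm was 1.22 in cHF, 0.14 in cHF+F and 0.15 in cHF+ROSI. That of Pgk1 was 0.85, 0.52 and 0.16. The part of that array in the single-channel differences was not tested. Pgam2 was the member with an unadjusted p under 0.05 in Cy5 alone, at 0.32 (adjusted p = 0.9998) for cHF+F versus cHF and 0.24 (adjusted p = 0.799) for cHF+ROSI versus cHF, against 0.10 and 0.07 in Cy3. In Cy5 alone 1, 1 and 0 of 8 members thus had an unadjusted p under 0.05 in the 3 comparisons, in the order above, beside 1.39%, 2.75% and 0.815% of all probes.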

How the data were processed

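The deposited scanner files hold, per the file headers, spot intensity values from Agilent Feature Extraction 10.5.1.1 for 24 2-colour arrays with 43379 non-control spots (mm8). The deposited table holds the authors' normalized log2 values. Of its columns, 16 were matched to cHF and cHF+F and used as an alternative, and 8 that matched no sample were left out. Median signals were background-corrected (normexp, offset 50) and normalized by loess (span 0.3) in limma 3.58.1 under R 4.3.3. Flagged spots were dropped, spots of a probe averaged, and probes with 4 or more arrays per group and at least 2 times background in both channels kept. A gene was represented by its brightest probe. One limma fit held the 3 groups. The fit was tested on simulated data. Members and lists were chosen with earlier results of these data known. All members are named, with Pkm, Ldha, Hk2, Pgam1 and other glycolysis genes at an unadjusted p under 0.05. Replicate numbers mark slides, from the file headers. Deviations from the group means of arrays on 1 slide correlated with a median of 0.47 (cHF+F with cHF), 0.26 (cHF+ROSI with cHF) and 0.11 (cHF+F with cHF+ROSI) over the 8 slides. The alternatives varied background, scaling, filter, weights, test and arrays.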

Additional observations from a re-analysis of the deposited data

Results flagged for a closer look

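Among 24 sets of 8 ratios (8 enzymes in 3 groups, span 0.3), 8 held a mouse whose gap to its nearest neighbour was large against the range of the group. Chance gives about 1 in 20 such sets, and the 8 genes share arrays. In cHF+ROSI the mouse was replicate 3 for Gpi1 (-0.88, next -0.18), Aldoa (-1.08, next 0.03), Pgam2 (-0.996, next -0.30) and Eno3 (-1.36, next -0.39). In cHF it was replicate 3 for Tpi1 (-0.65, next -0.17) and Eno3 (-0.61, next -0.09), and replicate 2, at the high end, for Pgk1 (0.22, next 0.02). In cHF+F it was replicate 3 for Gpi1 (-0.0300, next 0.15). Replicate 3 of the 3 groups lay on 1 slide.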

How the results depend on the processing

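No member was called in cHF+F versus cHF under 19 other settings, in the comparisons with cHF+ROSI under 18 of them (the authors' table had no column matched to cHF+ROSI), or without any 1 array. The number of members at an unadjusted p under 0.05 in cHF+F versus cHF was 0 with span 0.3 and moved to 2 with span 0.1, processed signals, no background correction, the replicate block, the methods' t-test, the authors' table, and span 0.1 with the block or without cHF+ROSI replicate 3, and without slide 3, and to 1 in Cy5 alone, without the filter and with bright-probe centring. In cHF+ROSI versus cHF it was 0 and moved to 1 with span 0.1, in Cy5 alone, and at span 0.1 without cHF+ROSI replicate 3. In cHF+F versus cHF+ROSI it was 1 and moved to 0 with median centring, in Cy5 alone and with bright-probe centring, and to 6 with the replicate block, which pairs arrays of a slide and changed no call after adjustment. Of all probes, 6.86%, 4.7% and 6.67% had such a p in the 3 comparisons with span 0.3. The shares were 7.53%, 4.45% and 6.27% with span 0.1, and 1.39%, 2.75% and 0.815% in Cy5 alone. They were 12.1%, 9.55% and 13.1% with the block, and 12.9%, 9.14% and 12.2% with span 0.1 as well. With bright-probe centring 237, 402 and 758 of 15958 probes had such a p. Shares for the other settings are not given here. Settings with span 0.1 joined to the block or to a left-out array, bright-probe centring and leaving out slide 3 were chosen after seeing the data.

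Signs turned as follows, as log2 differences. For cHF+ROSI versus cHF, span 0.1 (with or without the replicate block) gave Gpi1 0.0452, Aldoa 0.107, Tpi1 0.0528, Gapdh 0.0611 and Eno3 0.0491. Median centring gave Gpi1 0.00662, Aldoa 0.0307 and Pgk1 0.00397. Processed signals gave Gpi1 0.0126, Aldoa 0.0218, Tpi1 0.0164, Gapdh 0.0222, Pgk1 0.0103 and Eno3 0.0410. Mean spot signals gave Pgam2 -0.000704. No background correction gave Gpi1 0.0452, Aldoa 0.0916, Tpi1 0.0572, Gapdh 0.0622 and Eno3 0.0457. Cy5 alone gave Gpi1 0.128, Pfkm 0.486, Aldoa 0.108, Pgk1 0.386 and Eno3 0.0364. Array weights gave Pgam2 -0.000224. Bright-probe centring gave Gpi1 0.00317, Aldoa 0.00782, Tpi1 0.0160 and Gapdh 0.00778. Span 0.1 without cHF+ROSI replicate 3 gave Gpi1 0.0565, Aldoa 0.146, Tpi1 0.0487, Gapdh 0.0457 and Eno3 0.0843. Leaving out slide 3 gave Gpi1 0.00264 and Aldoa 0.00499. For cHF+F versus cHF+ROSI, span 0.1 (with or without the replicate block) gave Aldoa -0.0398. Median centring gave Gpi1 -0.0109 and Aldoa -0.0609. Processed signals gave Aldoa -0.0302. No background correction gave Aldoa -0.0400. Cy5 alone gave Gpi1 -0.00168, Aldoa -0.0469 and Pgk1 -0.0268. Span 0.1 without cHF+ROSI replicate 3 gave Aldoa -0.0784. For cHF+F versus cHF, median centring gave Gpi1 -0.00432, Aldoa -0.0303 and Gapdh -0.00943. Processed signals gave Aldoa -0.00838. The cause was not tested.

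Leaving out 1 array at a time, members at an unadjusted p under 0.05 numbered 0 to 2 in cHF+F versus cHF, 0 to 0 in cHF+ROSI versus cHF and 1 to 2 in cHF+F versus cHF+ROSI. With all arrays, 6.86%, 4.7% and 6.67% of all probes had such a p in this order. Without cHF+ROSI replicate 3, it was 1096, 762 and 1001 of 15958 probes, and shares without the other arrays are not given here. The median difference ran from 0.06 to 0.18 in cHF+F versus cHF, with a sign that turned for Aldoa (-0.0178 to 0.207). The median difference ran from -0.16 to 0.05 in cHF+ROSI versus cHF, with a sign that turned for Gpi1 (-0.142 to 0.0468), Aldoa (-0.208 to 0.136), Tpi1 (-0.151 to 0.0488), Gapdh (-0.164 to 0.0449), Pgam2 (-0.0339 to 0.136), Eno3 (-0.189 to 0.0819). The median difference ran from 0.09 to 0.27 in cHF+F versus cHF+ROSI, with a sign that turned for Aldoa (-0.0228 to 0.284).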
